A study of Malus domestica with 36 samples.

Results

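The comparison described here is the change from time point T1 to time point T2 in the peel of 'Granny Smith' apples kept in the storage regime labelled RA, without the tag SL. It rests on 6 of the 36 libraries of the series, 3 labelled T1_RA and 3 labelled T2_RA, each called a biological replicate by the submitters. All 12 groups hold peel of this 1 cultivar and differ in time (T1 or T2), in regime (RA, ULO or DCA_CF) and in the tag SL. ULO was storage at 1% oxygen and DCA at less than 1%, and the labels give no oxygen level for RA, no meaning for SL, no length for T1 and T2 and no number of fruits per library. The members of the comparison are all 32923 of the 57423 genes in the table that reached 1 FPKM in at least 3 of the 36 columns. FPKM counts the fragments assigned to a gene relative to its length and to all fragments of the library.

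Stored apples go on ripening in the cold. Ethylene drives that program: ACC synthase (ACS) makes the precursor and ACC oxidase (ACO) converts it to ethylene, which in turn raises genes for softening, aroma and colour. The peel is the outer layer with its wax and cuticle, and it makes the sesquiterpene alpha-farnesene, whose oxidation products have long been linked to the peel browning called superficial scald, a disorder to which 'Granny Smith' is prone. Peel also carries abundant stress and defence proteins, among them dehydrins (protective proteins of cold and drying tissue), lipid transfer proteins and pathogenesis-related (PR) proteins, and it moves and breaks down sorbitol, the main transport sugar of apple.

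The 6 libraries summed to between 713808 and 757599 FPKM, with T1 replicate c the highest. Read depth is not known, because the values are scaled to library size. The median coefficient of variation between replicates of genes at 10 to 100 FPKM was 6.52% at T1 and 4.43% at T2. Of the peel markers chosen for the comparison, 4 of 9 carried a name in the table (MALD3, AFS1, UGT88F1 and GDSL), and none of them was at 0. Their summed level was 8280 to 8952 FPKM at T1 and 2195 to 2326 FPKM at T2, and MALD3, the lipid transfer allergen of apple skin, made up most of it. The vascular markers (6 of 8 named) summed to between 400.0 and 416 FPKM at T1 and to between 535 and 541 FPKM at T2. The flesh markers (PG1 and EXPA1, 2 of 4 named) summed to between 75.9 and 78.0 FPKM at T1 and to between 67.6 and 71.2 FPKM at T2, and no green tissue marker carried a name. Within each sum the members moved apart, so a sum does not stand for the amount of a tissue. PG1 fell and EXPA1 rose, and UGT88F1 rose while MALD3, AFS1 and GDSL fell. Among the vascular markers SUT1 fell, while SOT3, SOT4, SOT5 and SDH1 rose. The part of tissue makeup in the results was not tested, and in such bulk samples fewer cells of a type and less RNA per cell cannot be told apart.

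Peel RNA changed broadly but mostly by modest amounts between T1 and T2. Of 32923 genes, 15992 (48.6%) differed at a false discovery rate (FDR, the Benjamini-Hochberg adjusted p over all genes from limma) under 0.05. Of these, 8293 (25.2%) were higher and 7699 (23.4%) lower at T2. Changes of at least 2-fold on the log2(FPKM + 1) scale that also passed that threshold were found for 1251 genes (3.80%) that were higher and 1116 genes (3.39%) that were lower. The median log2 change of all genes was 0.00168, and its 5th and 95th percentiles were -0.901 and 0.961. Log2 changes below are T2 minus T1 on the log2(FPKM + 1) scale, with ± giving the standard error of the fit, and this scale understates the change of low genes. Of all genes, 54.0% had T1 and T2 values that did not overlap. Statements on overlap below are read against this 54.0%, and counts of list members against the 25.2% and 23.4% of all genes that rose and fell.

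The genes that fell had carried a large share of the RNA. The 1116 genes that were at least 2-fold lower held 15.9% to 16.8% of the summed FPKM in the T1 libraries and 4.95% to 5.06% in the T2 libraries. The 1251 genes that were at least 2-fold higher went from between 3.09% and 3.13% to between 8.92% and 8.99%. Both sets were chosen by their change in these same libraries, so the direction of each shift is given by the choice. A few genes weighed heavily: the lower set summed to between 114263 and 127029 FPKM in the T1 libraries, and ACO1, DHN2 and MALD3 had T1 means of 11728, 8808 and 7794 FPKM. The top 10 genes of each library took 9.59% to 10.19% of the sum at T1 and 6.62% to 6.83% at T2. By annotation, 3.87% of 20784 protein-coding genes were at least 2-fold higher and 3.57% lower, and of 774 lncRNAs 2.71% were called in each direction.

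**Figure D1:**
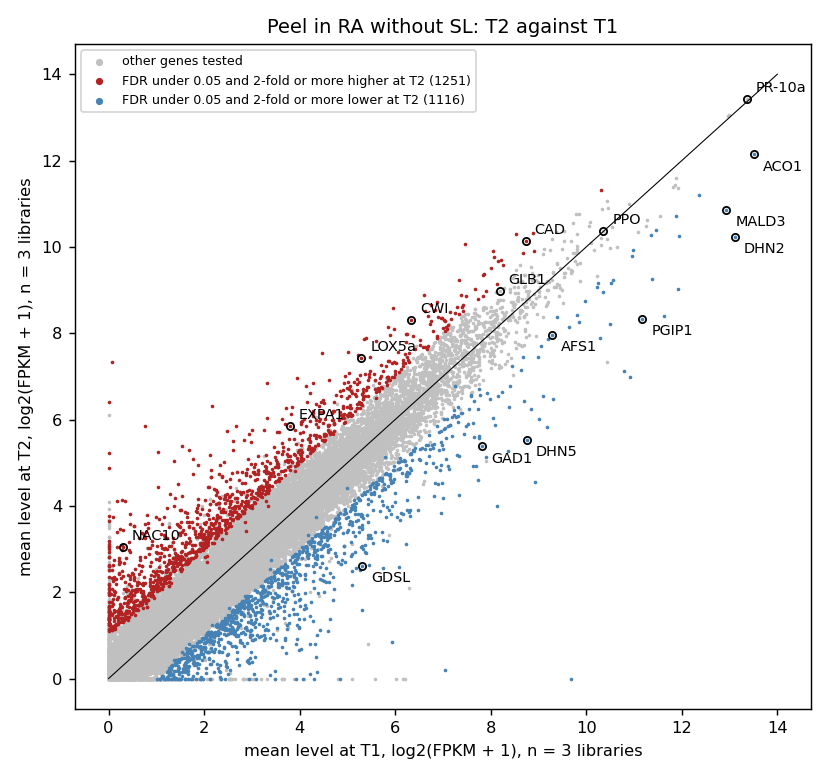
Mean level at T1 (x) against T2 (y) for the 32923 genes tested, both as log2(FPKM + 1) over 3 libraries, with the line of equal levels. Red and blue points are the 1251 higher and 1116 lower genes at an FDR under 0.05 and at least 2-fold. DHN2, MALD3, PGIP1 and ACO1 stand at the high end below the line, while PR-10a and PPO lie on it.

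Most of the most abundant transcripts fell or did not pass the test. Of the 14 genes among the 10 highest at T1 or at T2, 10 fell, 3 did not pass and 1 rose, where 23.4% of all genes fell and 25.2% rose. ACO1, the ACC oxidase expressed in ripening apple fruit, was the highest gene of all at T1, with 11128, 11138 and 12919 FPKM at T1 and 4618, 4553 and 4402 FPKM at T2. All T2 libraries were below all T1 libraries, and the gene ranked 4 at T2 (log2 change -1.37 ± 0.043, adjusted p = 3.6e-20). PR-10a, a PR-10 protein of the Mal d 1 allergen type, ranked 2 at T1 and 1 at T2, with 10040.0, 10075 and 11430.0 FPKM at T1 and 11391, 11076 and 10497 FPKM at T2. Its groups overlapped and it did not pass the test (log2 change 0.065 ± 0.043, adjusted p = 0.224). PR-10c and its neighbour in rank LOC103452845 had nearly the same values, with a ratio between 0.984 and 0.989 in the 6 libraries, so that their reads may be shared. PR-10c stood at 7688, 7567 and 8689.5 FPKM at T1 and 8376, 8531 and 8159 at T2, again with overlapping groups.

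DHN2, a dehydrin, ranked 3 at T1 and 36 at T2. Its libraries gave 8489.9, 8426 and 9507 FPKM at T1 and 1248, 1173 and 1194 FPKM at T2, so that every T2 value was far under every T1 value (log2 change -2.87 ± 0.041, adjusted p = 1.66e-27). MALD3 ranked 6 and then 15, with 7608, 7542 and 8233 FPKM at T1 and 1933, 1832 and 1803 FPKM at T2 (log2 change -2.07 ± 0.039, adjusted p = 5.37e-25). Unnamed genes near the top also fell, such as LOC103434169, with 5178, 5045 and 5509.5 FPKM at T1 and 2440.2, 2322 and 2333 at T2. The gene that rose was LOC103403677, which went from rank 44 to rank 9 and from 1258 ± 123 to 2545 ± 93.4 FPKM (log2 change 1.02 ± 0.058, adjusted p = 2.24e-14).

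Dehydrins were lower at T2 throughout. All 5 that were tested fell, where 23.4% of all genes did, with a median log2 change of -0.764 against 0.00168 for all genes. DHN5 was at 426, 433 and 436 FPKM at T1 and 45.7, 44.4 and 44.9 FPKM at T2 with no overlap, and its mean fell to 0.104 of the T1 level (log2 change -3.23 ± 0.079, adjusted p = 1.59e-22). DHN9 went from 2422 ± 160.1 to 1424 ± 32.1 FPKM (mean ± SD, n = 3). DHN8 fell by only 0.092 on the log2 scale, and DHN10 was at or under 0.618 FPKM in all 6 libraries.

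Defence proteins fell or did not pass. Of 9 PR proteins, allergens and polygalacturonase-inhibiting proteins, 6 fell, all of them at least 2-fold, none rose and 3 did not pass the test (median log2 change -1.18). Among all genes 23.4% fell, and 3.39% fell at least 2-fold. PGIP1 and PGIP2 encode polygalacturonase-inhibiting proteins, which block pectin-degrading enzymes of fungi. PGIP1 read 2291, 2330.1 and 2308 FPKM at T1 and 328, 320.1 and 318 FPKM at T2 (log2 change -2.84 ± 0.029, adjusted p = 9.21e-31), and PGIP2 read 618, 633 and 635 FPKM at T1 and 90.7, 88.8 and 82.6 FPKM at T2 (log2 change -2.83 ± 0.041, adjusted p = 1.75e-27). The 6 values of each gene fell into separate groups, and as close family members the genes may share reads. The thaumatin-like proteins PR-5a and PR-5b went from 1999 ± 50.2 to 881 ± 24.1 FPKM and from 1203 ± 15.1 to 539.5 ± 25.3 FPKM, and the chitinase CHT-3 from 22.4 ± 1.87 to 9.11 ± 1.29 FPKM. PR-5a stood at 1.593 to 1.677 times PR-5b in the 6 libraries, and this pair may share reads as well. The 3 members that did not pass were PR-10a, PR-10c and PR1a, and PR1a gave 239, 234 and 254 FPKM at T1 and 259, 247 and 238 FPKM at T2 (log2 change 0.033 ± 0.14, adjusted p = 0.883).

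**Figure D2:**
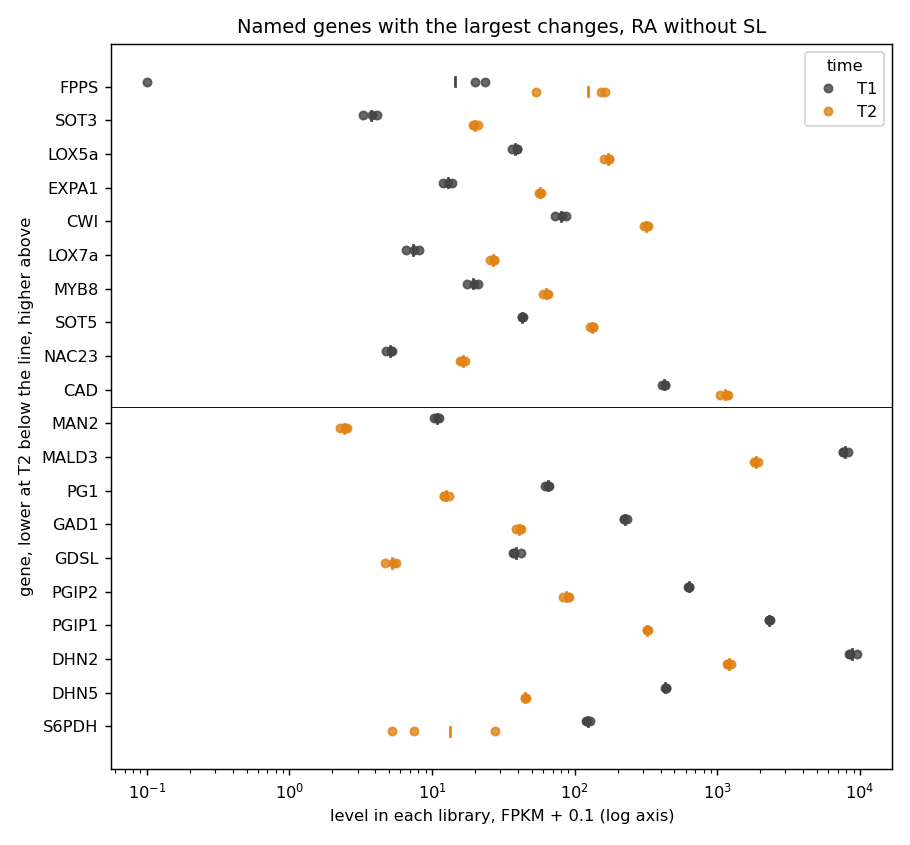
Level in each of the 3 T1 (grey) and 3 T2 (orange) libraries, as FPKM + 0.1 on a log axis, for the 10 genes with a symbol that rose most and the 10 that fell most, among those that passed, did not overlap and had a mean log2(FPKM + 1) of 2 or more. LOX5b, MADS10 and NAC10 are under that level and are not shown. Short lines are the means. The groups do not overlap for any of the 20 genes, but FPPS and S6PDH are spread widely within a group.

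Ethylene synthesis genes went in both directions. Among 6 tested, 2 rose, 2 fell and 2 did not pass (median log2 change -0.622). ACS1, the ACC synthase tied to ripening in apple, dropped together with ACO1: 11.5, 11 and 9.53 FPKM at T1 and 3.5, 3.96 and 4.35 FPKM at T2, with no overlap (log2 change -1.24 ± 0.065, adjusted p = 2.99e-15). ACS5A and ACS5B, other ACC synthases, were higher at T2. ACS5A gave 63.5, 60 and 56.3 FPKM at T1 and 107, 109 and 114 FPKM at T2 (log2 change 0.86 ± 0.067, adjusted p = 1.29e-11), and ACS5B gave 2.85, 2.86 and 3.26 FPKM at T1 and 7.44, 7.91 and 7.99 FPKM at T2 (log2 change 1.14 ± 0.073, adjusted p = 2.62e-13). Both had every T2 value above every T1 value. ACS3 was listed at 0 in all 6 libraries.

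In ethylene perception and signalling, the changes were small: 2 of 12 rose, 3 fell and 7 did not pass (median log2 change -0.00904). The receptor ERS1 went from 23.7 ± 1.26 to 15.9 ± 0.191 FPKM (log2 change -0.54 ± 0.04, adjusted p = 4.48e-12), and the receptor ETR2 from 32.4 ± 4.96 to 24.3 ± 1.88 FPKM. The ETR2 call was lost when only the 6 libraries were fitted (adjusted p = 0.0582). EIN2, which relays the signal, fell by 0.24 on the log2 scale although its groups overlapped. The transcription factors EIL1 and EIL2, of the EIN3 type that acts at the end of the pathway, rose by 0.39 ± 0.06 and 0.35 ± 0.084 on the log2 scale. CTR1, the kinase that holds the pathway off without ethylene, gave 17.8, 18.4 and 14.9 FPKM at T1 and 14.4, 18 and 18.8 at T2 and did not pass (adjusted p = 1).

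The alpha-farnesene synthase gene AFS1 fell while the rest of the isoprenoid genes mostly rose. AFS1 gave 616, 629 and 609 FPKM at T1 and 248, 247 and 251 FPKM at T2, and its mean fell to 0.403 of the T1 level with no overlap (log2 change -1.31 ± 0.028, adjusted p = 6.62e-24). HMG1 and HMG2 encode HMG-CoA reductase, the committed step of the mevalonate pathway. HMG1 gave 861, 864 and 799 FPKM at T1 and 917, 907 and 949 FPKM at T2, a small rise without overlap (log2 change 0.14 ± 0.031, adjusted p = 0.000587) that did not pass when only the 6 libraries were fitted (adjusted p = 0.069), while the less abundant HMG2 gave 26.2, 26.3 and 23.7 FPKM at T1 and 9.53, 8.37 and 9.09 FPKM at T2 (log2 change -1.40 ± 0.073, adjusted p = 2.53e-15). Of the 9 genes of isoprenoid and triterpene synthesis, 6 rose and 3 fell, with a median log2 change of 0.177. The oxidosqualene cyclases, which make the triterpene skeletons of apple wax, did not move alike. OSC4 gave 97.7, 88.3 and 89.5 FPKM at T1 and 148, 172 and 198 FPKM at T2 (log2 change 0.89 ± 0.13, adjusted p = 1.51e-06), OSC1 and OSC3 rose by 0.24 ± 0.051 and 0.18 ± 0.048, and OSC5, listed at 0 in T2 replicate b, fell by 0.75 ± 0.31. FPPS, farnesyl diphosphate synthase, supplies the substrate of AFS1 and had the largest rise of all genes with a symbol, but its values were uneven. They were 23.5, 0 and 19.7 FPKM at T1 and 164, 53.7 and 154 FPKM at T2, with the 0 in T1 replicate b and the lowest T2 value in T2 replicate b (log2 change 3.81 ± 1.01, adjusted p = 0.00249). The log2 change was 2.31 without T1 replicate b (adjusted p = 0.0458), and the call was lost with a pseudocount of 0.1 (adjusted p = 0.0549) and when only the 6 libraries were fitted (adjusted p = 0.0797).

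PPO, the polyphenol oxidase that browns cut apple, showed no detectable change. The libraries read 1323, 1339 and 1263 FPKM at T1 and 1301, 1299 and 1332 FPKM at T2, the groups overlapped, and the log2 change was 0.0032 ± 0.047, adjusted p = 0.977.

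**Figure D3:**
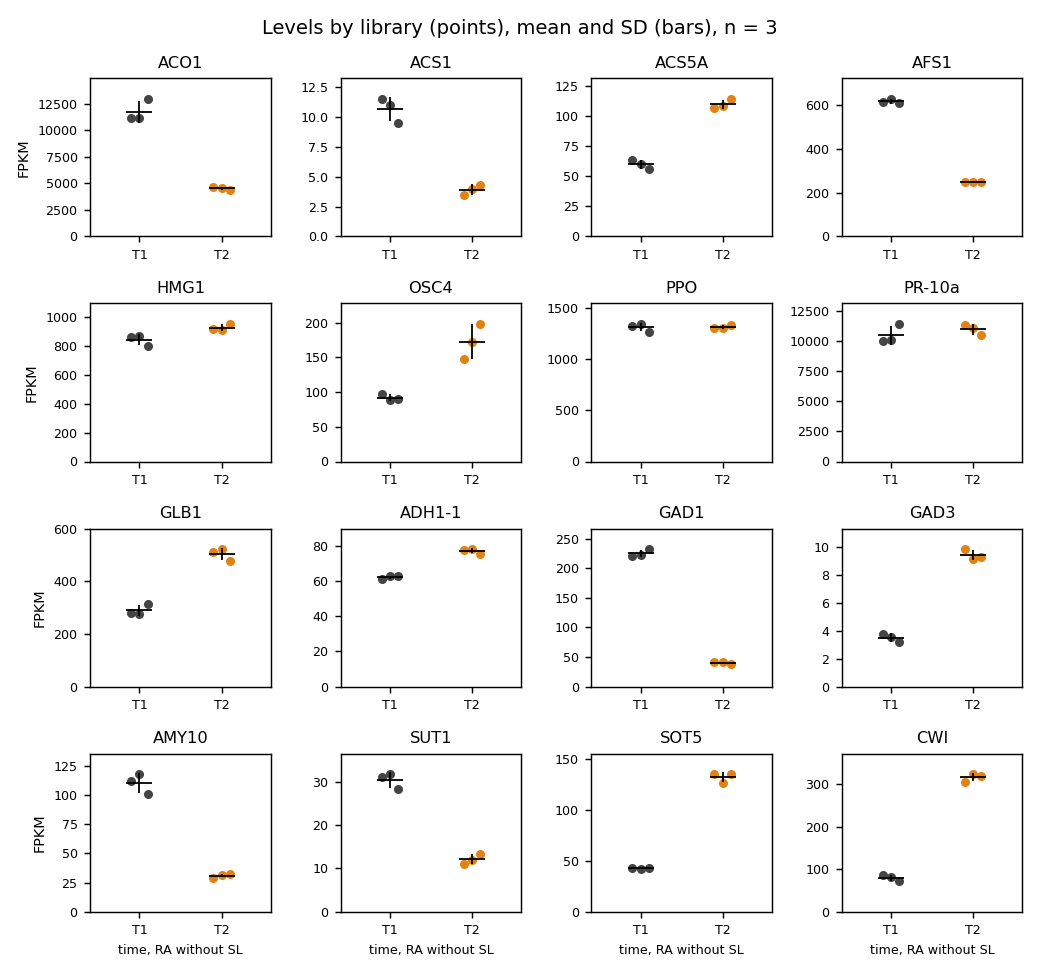
Level in FPKM in each T1 and T2 library (points) with mean and SD (bars, n = 3) for 16 genes of ethylene, isoprenoid, defence, low oxygen, GABA and sugar metabolism, on axes that start at 0. ACO1, AFS1, GAD1, AMY10 and SUT1 are lower and GLB1, SOT5 and CWI higher in all 3 T2 libraries, while PPO and PR-10a overlap.

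Over the 9 genes of fermentation and GABA, 6 rose, 1 fell and 2 did not pass (median log2 change 0.153). GLB1 encodes a non-symbiotic haemoglobin that plants raise when oxygen is short, and gave 279, 277 and 314 FPKM at T1 and 512, 523 and 479 FPKM at T2 (log2 change 0.80 ± 0.07, adjusted p = 1.57e-10). ADH1-1, alcohol dehydrogenase of ethanol fermentation, gave 61.3, 62.8 and 62.7 FPKM at T1 and 77.8, 78.2 and 75.6 FPKM at T2 (log2 change 0.31 ± 0.074, adjusted p = 0.00102). Both had T2 values above all T1 values, and the ADH1-1 call was lost with a pseudocount of 0.1 (adjusted p = 0.337). GAD1 and GAD3 make GABA from glutamate and went apart. GAD1 dropped in every library, with 221, 223 and 233 FPKM at T1 and 40.9, 42.1 and 38.8 FPKM at T2 (log2 change -2.44 ± 0.027, adjusted p = 3.13e-30), and the much lower GAD3 rose, with 3.8, 3.54 and 3.16 FPKM at T1 and 9.84, 9.14 and 9.29 FPKM at T2 (log2 change 1.21 ± 0.053, adjusted p = 5.63e-17). GABA-T2, a GABA transaminase that breaks GABA down, rose from 18 ± 1.48 to 27.5 ± 0.617 FPKM.

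AAT1, the alcohol acyltransferase that forms aroma esters, fell slightly, from 229 ± 6.92 to 196 ± 8.85 FPKM (log2 change -0.22 ± 0.031, adjusted p = 5.26e-07). Lipoxygenases, which open the way from fatty acids to aldehydes, esters and jasmonate, rose more than they fell: 9 of 13 rose, 2 fell and 2 did not pass (median log2 change 0.39). Among all genes 25.2% rose and 23.4% fell. LOX5a gave 39.1, 39.3 and 36.2 FPKM at T1 and 161, 174 and 174 FPKM at T2 (log2 change 2.12 ± 0.051, adjusted p = 1.28e-22), and LOX7a gave 7.99, 7.36 and 6.49 FPKM at T1 and 25.4, 27.2 and 27.1 FPKM at T2 (log2 change 1.74 ± 0.088, adjusted p = 1.42e-15). In both, the T1 and T2 values stood well apart. LOX5b and LOX7c were near the floor at T1: LOX5b read 0.945, 0 and 0.801 FPKM at T1 and 5.6, 5.59 and 5.96 at T2, and LOX7c read 0.0897, 0.342 and 0.419 FPKM at T1 and 2.47, 2.85 and 4.34 at T2. The abundant LOX1a rose from 465 ± 41.3 to 604 ± 24.2 FPKM. The falls were LOX2a (log2 change -0.19 ± 0.074, adjusted p = 0.0339), a call lost with a pseudocount of 0.1 (adjusted p = 0.0556), and LOX6b, under 1 FPKM in all 6 libraries, whose call was lost when only the 6 libraries were fitted (adjusted p = 0.136).

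Softening genes were split. EXPA1, an expansin that loosens cell walls, rose, with 11.9, 12.9 and 13.7 FPKM at T1 and 58.1, 56.7 and 55.6 FPKM at T2 (log2 change 2.06 ± 0.089, adjusted p = 4.31e-17), whereas PG1, the polygalacturonase that degrades pectin in ripe apple, fell, with 66.2, 64.9 and 62.2 FPKM at T1 and 13.1, 11.9 and 12 FPKM at T2 (log2 change -2.29 ± 0.046, adjusted p = 2.67e-24). Neither gene's groups overlapped. Of 6 cell wall enzymes, 4 rose and 2 fell (median log2 change 0.418). XET02, a xyloglucan endotransglycosylase, rose from 208 ± 4.49 to 344 ± 5.87 FPKM, and AFase1, an arabinofuranosidase, from 21.2 ± 1.76 to 31.5 ± 0.587 FPKM. The beta-galactosidase BGAL101 fell from 261 ± 20.2 to 221 ± 5.83 FPKM. CAD, named for cinnamyl alcohol dehydrogenase, an enzyme of lignin precursors, was abundant and rose, with 427, 411 and 431 FPKM at T1 and 1036, 1180.2 and 1151 FPKM at T2 (log2 change 1.40 ± 0.05, adjusted p = 7.24e-19). GDSL, named for the GDSL lipase family, which includes enzymes of cutin and other lipids, fell, with 41.9, 36.6 and 37.1 FPKM at T1 and 5.52, 4.57 and 5.25 FPKM at T2 (log2 change -2.69 ± 0.058, adjusted p = 1.14e-23).

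Sugar handling shifted between members more than as a whole: of 19 genes, 7 rose, 8 fell and 4 did not pass (median log2 change -0.154). Of 4 sorbitol transporters 3 rose. SOT3 gave 3.98, 3.68 and 3.18 FPKM at T1 and 19.5, 19.2 and 20.7 FPKM at T2 (log2 change 2.18 ± 0.059, adjusted p = 1.52e-21), SOT5 gave 43.1, 42.2 and 42.4 FPKM at T1 and 135, 127 and 135 FPKM at T2 (log2 change 1.61 ± 0.068, adjusted p = 2.9e-17), and SOT4 rose from 80.3 ± 3.14 to 95.5 ± 1.35 FPKM. SOT2 stayed under 1 FPKM in all 6 libraries and did not pass. CWI, cell wall invertase, which splits sucrose outside the cell, rose 3.96-fold in the mean without overlap, with 86, 81.5 and 72.5 FPKM at T1 and 306, 324 and 320.3 FPKM at T2 (log2 change 1.97 ± 0.094, adjusted p = 3.62e-16). The sucrose transporter SUT1 went the other way, with 31.3, 31.9 and 28.5 FPKM at T1 and 11.1, 11.9 and 13.5 FPKM at T2 (log2 change -1.27 ± 0.074, adjusted p = 3.25e-14), and so did NI, named for neutral invertase, from 43.3 ± 4.49 to 30.6 ± 2.06 FPKM. AMY10, an amylase that breaks down starch, gave 112, 118 and 101 FPKM at T1 and 29.2, 31.4 and 31.9 FPKM at T2; its mean fell to 0.279 of the T1 level without overlap (log2 change -1.81 ± 0.056, adjusted p = 2.51e-20). Among sorbitol dehydrogenases, SDH1 rose slightly (log2 change 0.14 ± 0.02) while SDH2 (-0.48 ± 0.025) and SDH6 (-0.47 ± 0.021) fell. S6PDH, sorbitol-6-phosphate dehydrogenase of sorbitol synthesis, gave 128, 120.3 and 123 FPKM at T1 and 5.13, 7.31 and 27.6 FPKM at T2, with T2 replicate c apart from the other T2 libraries (log2 change -3.46 ± 0.86, adjusted p = 0.00145).

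Flavonoid genes went both ways in RA without SL, and most did not pass. Of 17 genes, 5 rose, 3 fell and 9 did not pass (median log2 change 0.0862). The lowest and highest changes were those of LAR1, named for leucoanthocyanidin reductase, and FLS, named for flavonol synthase, and both had uneven libraries. LAR1 gave 19.3, 19.3 and 17.3 FPKM at T1 and 11.7, 0 and 12.5 FPKM at T2 (log2 change -1.82 ± 1.06, adjusted p = 0.167), and FLS gave 0, 0 and 28.9 FPKM at T1 and 3.08, 2.79 and 26.1 FPKM at T2 (log2 change 1.27 ± 1.01, adjusted p = 0.326). CHS1, a chalcone synthase at the entry of the pathway, gave 2.17, 1.56 and 1.97 FPKM at T1 and 1.9, 2.24 and 1.73 FPKM at T2 with overlapping groups (log2 change 0.03 ± 0.13, adjusted p = 0.891). A further chalcone synthase, CHS-2, gave 13.3, 12.1 and 13.2 FPKM at T1 and 13.6, 13.1 and 14.6 at T2 and did not pass (log2 change 0.086 ± 0.093, adjusted p = 0.483). DFR, dihydroflavonol reductase of the anthocyanin branch, was listed at 0 in all T1 libraries and at 0.289, 0 and 0.704 FPKM at T2 (log2 change 0.38 ± 0.11, adjusted p = 0.00688, and 0.18 with adjusted p = 0.126 without T2 replicate c; adjusted p = 0.184 when only the 6 libraries were fitted), and ANS, the next enzyme, was listed at 0 in all 6. The flavanone hydroxylases F3H and MdF3H went apart, with log2 changes of -0.38 ± 0.047 and 0.33 ± 0.051. UGT88F1, which makes the apple dihydrochalcone phloridzin, had the largest rise of the list that passed, with 74.7, 73.2 and 73.2 FPKM at T1 and 139, 132 and 135 FPKM at T2, all T2 values above all T1 values (log2 change 0.87 ± 0.028, adjusted p = 5.02e-20).

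Hormone and stress-signalling lists had small median changes, although some of their members changed at least 2-fold. Of 7 gibberellin genes, 6 rose, 0 fell and 1 did not pass (median log2 change 0.261), where 25.2% of all genes rose and 23.4% fell. Among the 6 were KS, ent-kaurene synthase of gibberellin synthesis, from 1.63 ± 0.348 to 3.3 ± 0.329 FPKM, and the receptor gene GID1b, from 7.79 ± 0.8 to 11.5 ± 0.584 FPKM. Of 10 Aux/IAA genes, repressors of auxin signalling, 4 rose and 1 fell, including IAA2 and IAA4 (log2 changes 0.55 ± 0.054 and 0.47 ± 0.061) against IAA6 (-0.42 ± 0.048). Of the 4 auxin response factors tested 3 fell, and ARF2 went from 4.52 ± 0.25 to 2.33 ± 0.428 FPKM. The abscisic acid and osmotic stress kinases SnRK2 gave 3 higher and 3 lower of 9, with the largest fall in SnRK2.5, which read 13.5, 14 and 13.9 FPKM at T1 and 4.21, 4.63 and 4.04 FPKM at T2 (log2 change -1.49 ± 0.13, adjusted p = 9.78e-11). CIPK kinases, which act with calcium sensors, gave 10 higher and 6 lower of 23, and CIPK26 read 5.98, 5.8 and 4.89 FPKM at T1 and 14.4, 11.8 and 12.4 at T2 (log2 change 1.08 ± 0.07, adjusted p = 3.33e-13). The spermidine synthases SPDS1 and SPDS2a rose by 0.66 ± 0.05 and 0.51 ± 0.035, 2 of 4 polyamine genes, with 0 falling.

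**Figure D4:**
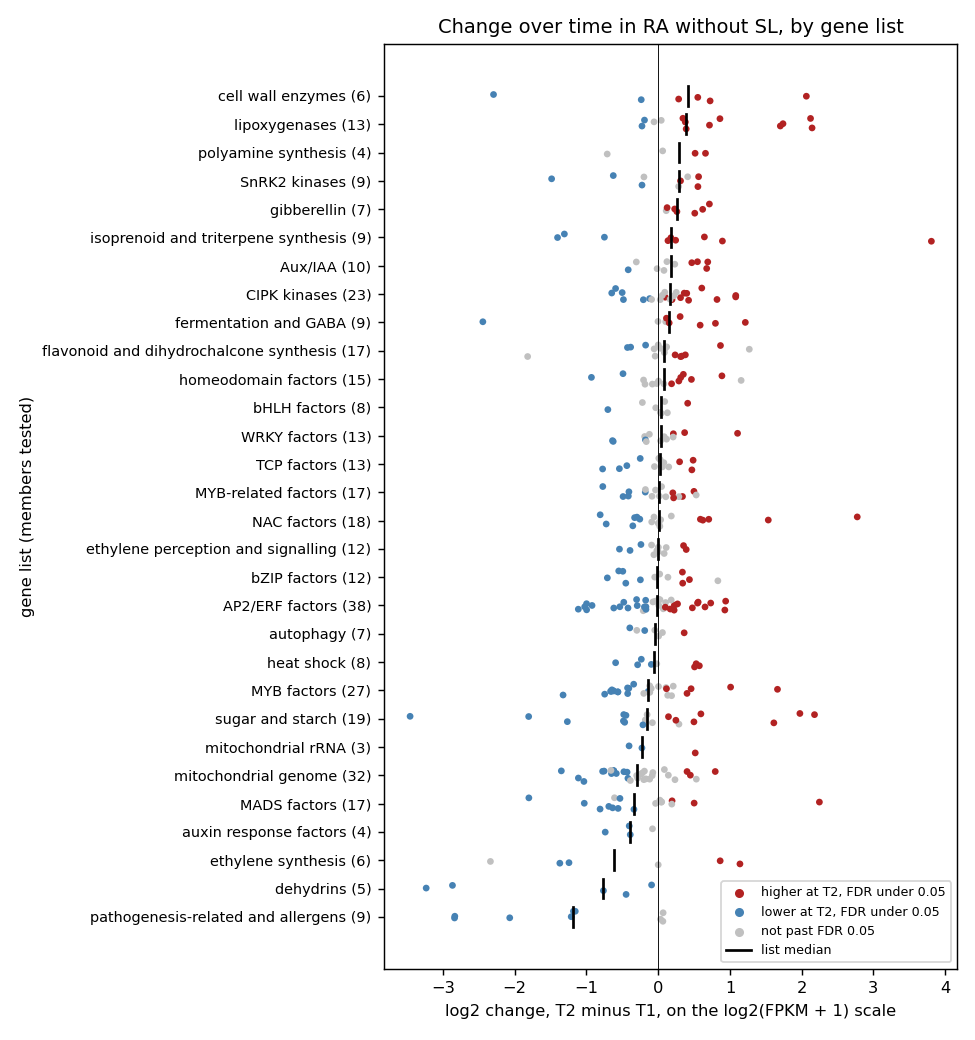
Log2 change (T2 minus T1, log2(FPKM + 1) scale) of each tested member of the 30 gene lists, with the number tested in brackets. Red points rose and blue points fell at an FDR under 0.05, grey points did not pass, and black bars are list medians. The 2 lists with the lowest medians are pathogenesis-related proteins with allergens (-1.18) and dehydrins (-0.764).

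Transcription factor families mostly had members moving both ways, and their counts are read against the 25.2% of all genes that rose and the 23.4% that fell. Of 27 MYB factors 5 rose and 13 fell (median log2 change -0.139). MYB8 rose without overlap, with 19.4, 17.4 and 20.7 FPKM at T1 and 64.9, 63.8 and 59.6 FPKM at T2 (log2 change 1.66 ± 0.051, adjusted p = 1.94e-20), and MYB30 fell without overlap, with 16.1, 16.3 and 18.1 FPKM at T1 and 6.08, 6.24 and 6 FPKM at T2 (log2 change -1.33 ± 0.036, adjusted p = 2.03e-21). Of 38 AP2/ERF factors, the family of ethylene response factors, 12 rose and 15 fell (median log2 change -0.0171). The lower member with the smallest p was ERF1, at 342, 339 and 348 FPKM at T1 and 173, 167 and 174 FPKM at T2, and its mean fell to 0.499 of the T1 level without overlap (log2 change -0.998 ± 0.029, adjusted p = 1.05e-20).

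Of 18 NAC factors 5 rose and 6 fell (median log2 change 0.00567). NAC10 was close to off at T1 and on at T2, with 0, 0.179 and 0.499 FPKM at T1 and 7.79, 7.22 and 6.82 FPKM at T2 (log2 change 2.77 ± 0.15, adjusted p = 9.4e-15). NAC23 rose as well, with 5.15, 5.04 and 4.66 FPKM at T1 and 16.1, 16.9 and 15.6 FPKM at T2 (log2 change 1.53 ± 0.11, adjusted p = 2.19e-12), and the abundant NAC22 fell from 377 ± 6.58 to 215 ± 3.65 FPKM. Of 17 MADS factors 3 rose and 8 fell (median log2 change -0.338). MADS10 came up from the floor, with 0, 0.171 and 0 FPKM at T1 and 4.73, 3.7 and 3.65 at T2 (log2 change 2.25 ± 0.23, adjusted p = 2.7e-09), and DAM1, of the dormancy-associated type, fell, with 50, 48.7 and 52.6 FPKM at T1 and 14.7, 14.9 and 11.9 FPKM at T2 (log2 change -1.80 ± 0.18, adjusted p = 1.35e-09). Of 13 WRKY factors, often tied to defence, 3 rose and 3 fell (median log2 change 0.0333), led by WRKY15 with 4.56, 4.1 and 5.13 FPKM at T1 and 12.1, 9.28 and 11.9 at T2 (log2 change 1.11 ± 0.14, adjusted p = 1.16e-07). The remaining families were homeodomain (6 higher and 2 lower of 15, median log2 change 0.0791), MYB-related (4 and 5 of 17, 0.0163), bZIP (3 and 5 of 12, -0.0137), TCP (3 and 4 of 13, 0.0278) and bHLH (1 and 1 of 8, 0.0358). Their changes were within 1 on the log2 scale, apart from a homeodomain gene at 1.16 that did not pass.

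Heat shock genes gave 3 higher and 4 lower of 8 (median log2 change -0.058). The heat shock factor HSF6 read 127, 119 and 117 FPKM at T1 and 169, 170.3 and 177 FPKM at T2 (log2 change 0.51 ± 0.089, adjusted p = 2.62e-05), and the chaperone HSP90.5 rose from 33.8 ± 1.25 to 49.2 ± 2.9 FPKM. HSF4 was low and fell, from 2.67 ± 0.3 to 1.44 ± 0.326 FPKM, and Hsp2 fell by 0.096 on the log2 scale, from 279.8 ± 4.91 to 262 ± 4.62 FPKM. Of 7 autophagy genes 1 rose, ATG18a (log2 change 0.36 ± 0.035), and 2 fell.

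Genes of the mitochondrial genome mostly fell or did not pass: 3 of 32 rose, 13 fell and 16 did not pass (median log2 change -0.293). Among all genes 25.2% rose and 23.4% fell. The nad genes encode subunits of respiratory complex I. The nad7 gene read 6.89, 5.78 and 10 FPKM at T1 and 3.26, 2.82 and 3.22 FPKM at T2 (log2 change -1.04 ± 0.15, adjusted p = 1.07e-06), and nad3 read 16.4, 14.7 and 28 FPKM at T1 and 8.68, 5.41 and 6.73 FPKM at T2 (log2 change -1.35 ± 0.21, adjusted p = 4.51e-06). T1 replicate c was the highest T1 library for both. It was also the highest for the ribosomal RNAs 26rrn, with 141, 133 and 191 FPKM at T1 and 118, 112 and 116 at T2, and 18rrn, with 699.6, 674 and 860.4 FPKM at T1 and 647, 609 and 642 at T2. Without T1 replicate c the log2 change of 26rrn went from -0.41 ± 0.092 to -0.25 (adjusted p = 0.00932), and that of 18rrn went from -0.23 ± 0.07 to -0.12 and did not pass (adjusted p = 0.134). Both calls were lost when only the 6 libraries were fitted (adjusted p = 0.0729 for 26rrn and 0.136 for 18rrn).

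A small set of genes went from near absence to clear presence or back. In 38 of the 32923 genes all T1 libraries were under 1 FPKM and all T2 libraries at 5 FPKM or more. All 38 passed the test, but a choice on these same values makes that nearly certain, so it adds no support. LOX5b and NAC10 were the 2 of them with a name. LOC103411634 and LOC103443721, both among the 38, had the same values in the 6 libraries (ratio 1.000 at T2), so that their reads may be shared. LOC103417587 read 0.563, 0.741 and 0.771 FPKM at T1 and 61.7, 53.3 and 53.8 FPKM at T2 (log2 change 5.08 ± 0.60, adjusted p = 4.27e-08). LOC103417328 was listed at 0 in all T1 libraries and at 37.7, 35.4 and 35.4 FPKM at T2 (log2 change 5.22 ± 2.16, adjusted p = 0.0482). LOC103417539 was likewise listed at 0 at T1 and at 30.9, 27.8 and 26.3 FPKM at T2 (log2 change 4.87 ± 1.5, adjusted p = 0.00843). Both were uneven among replicates elsewhere in the series, with 20.3 ± 35.1 FPKM (mean ± SD, n = 3) for LOC103417328 in DCA_CF without SL at T1 and 7.11 ± 6.18 FPKM for LOC103417539 in RA with SL at T1, and their standard errors are large.

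The reverse, from 5 FPKM or more to under 1, held for 31 of the 32923 genes, all without a name. They were picked in the same way, and 30 passed. LOC103401488 read 19.8, 21 and 18.1 FPKM at T1 and 0.107, 0.12 and 0.133 FPKM at T2 (log2 change -4.20 ± 0.29, adjusted p = 1.07e-12). Large falls that did not reach the floor included LOC103439750, with 492, 491 and 479 FPKM at T1 and 21.6, 22.1 and 23.4 FPKM at T2 (log2 change -4.39 ± 0.067, adjusted p = 5.22e-27), and LOC103406883, with 285, 286 and 272 FPKM at T1 and 13.8, 15.3 and 15.4 FPKM at T2 (log2 change -4.15 ± 0.039, adjusted p = 2.66e-31). These are genes with no symbol in the table, and no function is given for them here. Some of the largest fitted changes came from uneven libraries: LOC103416176 was at 239, 0.107 and 244 FPKM in the T2 libraries.

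The change over time in RA was then compared with that under low oxygen, over separate libraries. In ULO without SL 6742 genes (20.5%) and in DCA_CF without SL 8956 genes (27.2%) changed at least 2-fold at an FDR under 0.05, against 2367 (7.19%) in RA. Of all genes, 12.2% were higher and 8.24% lower in ULO, and 18.1% higher and 9.10% lower in DCA_CF. Of the 1251 genes that rose at least 2-fold in RA, 392 also did in ULO (31.3% of the RA set and 9.73% of the ULO set) and 483 in DCA_CF (38.6% and 8.11%). Of the 1116 that fell, 388 also fell in ULO (34.8% and 14.3%) and 361 in DCA_CF (32.3% and 12% of each set). The difference between the RA change and the mean of both low oxygen changes passed for 20364 genes (61.9%), with 8262 (25.1%) more positive and 12102 (36.8%) more negative in RA. That split depended on scaling: with median-of-ratios size factors, which moved the median difference of all genes from -0.128 to 0.0158, it was 10354 and 9769.

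The named genes with the largest difference from low oxygen were GLB1, HMG1, FPPS and 2 AP2/ERF factors on the positive side. GLB1 had log2 changes of 0.80 in RA, -4.47 in ULO and -4.32 in DCA_CF (difference 5.19 ± 0.085, adjusted p = 1.38e-26). HMG1 had log2 changes of 0.14, -2.79 and -3.59 in the same order (difference 3.32 ± 0.038, adjusted p = 9.73e-30). The AP2/ERF factors AP2D16 and AP2D58 had differences of 3.38 and 3.31. FPPS had a difference of 3.63 that was lost without T1 replicate b (2.13, adjusted p = 0.101) and with a pseudocount of 0.1 (adjusted p = 0.149).

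In the other direction stood GDSL, with -2.69 in RA, 1.83 in ULO and 2.74 in DCA_CF (difference -4.98 ± 0.071, adjusted p = 6.31e-28). EXPA1 rose in all 3 regimes but least in RA, by 2.06, 5.66 and 7.06 (difference -4.29 ± 0.11, adjusted p = 2.08e-22). Hsp2, AP2D29 and SnRK2.5 had differences of -3.61, -3.10 and -3.02. GAD1 and MALD3 fell in RA and had log2 changes near 0 under low oxygen. The log2 change of GAD1 was -0.042 in ULO and 0.048 in DCA_CF (difference -2.45 ± 0.033, adjusted p = 1.78e-28), and that of MALD3 was 0.12 and -0.036 (difference -2.11 ± 0.048, adjusted p = 1.71e-23). PGIP1 and PG1 fell under all 3 regimes, and their differences did not pass (adjusted p = 0.0935 and 0.305). For AFS1 the RA change of -1.31 stood against 0.55 in ULO and -0.33 in DCA_CF (difference -1.42 ± 0.034, adjusted p = 4.79e-23).

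By list, 26 of the 38 AP2/ERF factors had a more positive change in RA than under low oxygen and 7 a more negative one, with a median difference of 0.822 against -0.128 for all genes. The shares over all genes, which apply to each list here, were 25.1% more positive and 36.8% more negative. For the mitochondrial genome the counts more positive and more negative were 15 and 3 of 32 (median difference 0.505), and for CIPK kinases 16 and 5 of 23 (0.537). TCP factors gave 3 and 8 of 13 (-0.852), and bZIP factors 3 and 8 of 12 (-0.8). Lists can hold members near 0 in RA without SL that passed the filter only through other libraries. AP2D49 is such a member, with means of 0.261 FPKM at T1 and 0.0304 FPKM at T2. There the difference comes mainly from the change under low oxygen, so these counts describe the lists and are no test of a family.

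**Figure D5:**
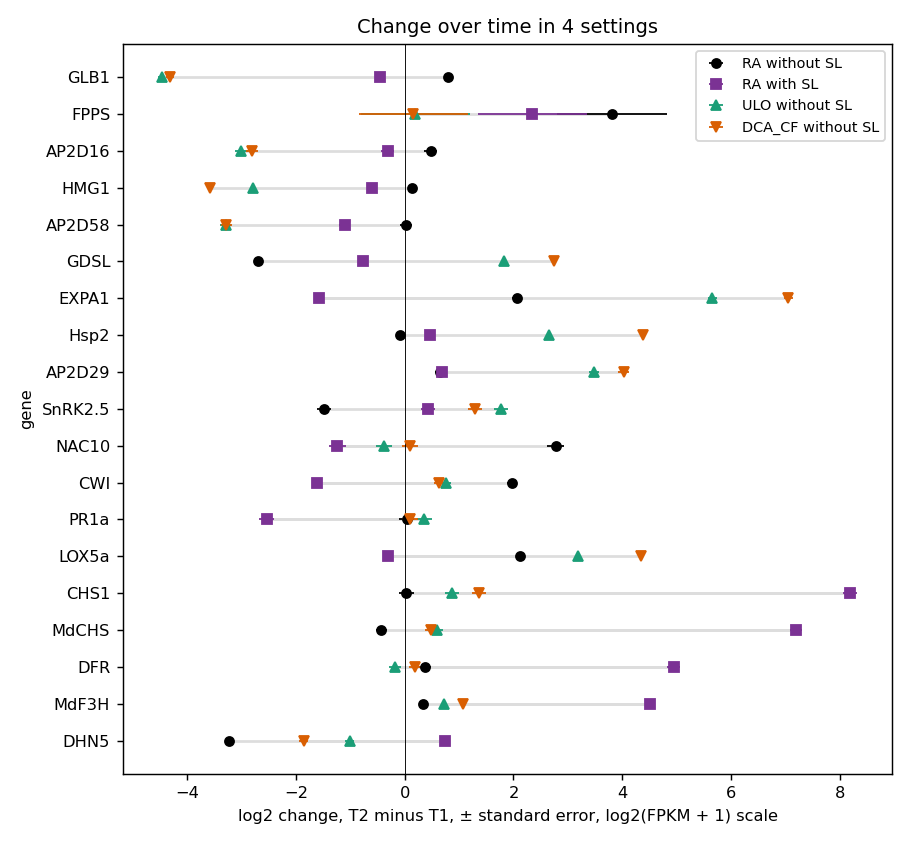
Log2 change from T1 to T2 with its standard error in RA without SL (circles), RA with SL (squares), ULO (upward triangles) and DCA_CF (downward triangles), both without SL, for the genes with a symbol and a mean log2(FPKM + 1) of 2 or more that had the largest differences. GLB1 and HMG1 fall under low oxygen and not in RA, and CHS1, MdCHS, DFR and MdF3H rise in RA with SL and lie between -0.43 and 0.38 in RA without SL.

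Within RA, the time change without SL differed from that with SL for 14533 genes (44.1%), 6797 (20.6%) more positive and 7736 (23.5%) more negative without SL. This balance turned with scaling: the counts were 7820 and 6775 with median-of-ratios size factors, 7317 and 6848 with scaling to one total, and 7282 and 7233 with upper quartile scaling. With SL, 998 genes (3.03%) changed at least 2-fold, 544 of them higher (1.65%) and 454 lower (1.38%). Of the 1251 genes that rose without SL, 82 rose (6.55%) and 84 fell (6.71%) with SL, and of the 1116 that fell, 54 fell (4.84%) and 44 rose (3.94%). As shares of the genes called with SL in that direction, these are 15.1% and 18.5%, and 11.9% and 8.09%.

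Of the 5 genes with a symbol and a mean log2(FPKM + 1) of 2 or more over the groups compared that had the most negative difference, 4 belonged to flavonoid synthesis. That mean takes in the libraries with SL, and DFR and CHS1, low without SL, reached the level only through them. The tally therefore describes the genes picked and is no test of the pathway. CHS1 had log2 changes of 0.03 without SL and 8.20 with SL (difference -8.17 ± 0.19, adjusted p = 6.17e-23), MdCHS of -0.43 and 7.20 (difference -7.63 ± 0.15, adjusted p = 1.22e-24), and DFR of 0.38 and 4.95 (difference -4.57 ± 0.16, adjusted p = 8.67e-19). Of the 17 flavonoid genes, 11 had a more negative change without SL and 2 a more positive one (median difference -2.22, against -0.0316 for all genes). The shares over all genes were 23.5% more negative and 20.6% more positive. The list takes in LAR2 (means 0.044 at T1 and 0.137 FPKM at T2 without SL), DFR and ANS. These were near or at 0 in RA without SL and passed the filter only through other libraries. Their differences come mainly from the change with SL, so this count too is no test of the pathway. DHN5, PGIP1 and PG1, which fell without SL, had positive changes with SL. DHN5 had log2 changes of -3.23 and 0.74 (difference -3.97 ± 0.11, adjusted p = 5.88e-21), PGIP1 of -2.84 and 0.50 (difference -3.33 ± 0.042, adjusted p = 5.49e-28), and PG1 of -2.29 and 1.12 (difference -3.42 ± 0.066, adjusted p = 1.22e-24).

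On the positive side, NAC10 had log2 changes of 2.77 and -1.24 (difference 4.01 ± 0.22, adjusted p = 8.93e-15), EXPA1 of 2.06 and -1.58 (difference 3.65 ± 0.13, adjusted p = 5.71e-19), and CWI of 1.97 and -1.62 (difference 3.59 ± 0.13, adjusted p = 2.42e-18). For NAC10 the 2 settings lay apart mainly at T1. Its mean with SL was 15.3 FPKM at T1 and 6.0 FPKM at T2. Without SL it read 0, 0.179 and 0.499 FPKM at T1 and 7.79, 7.22 and 6.82 FPKM at T2. LOX5a changed by 2.12 and -0.30 (difference 2.42 ± 0.072, adjusted p = 2.43e-20). PR1a did not pass without SL and had a log2 change of -2.54 with SL (difference 2.57 ± 0.20, adjusted p = 1.52e-11). PPO had log2 changes of 0.0032 and 0.007, and its difference did not pass (-0.0038 ± 0.066, adjusted p = 0.974).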

How the data were processed

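Peel RNA of 3 biological replicates per group was made into non-directional libraries and sequenced in 100-bp reads, per the labels' protocols. HISAT2, StringTie and DESeq2 are named without versions or roles in the submitters' processing notes, and the genome build is not given in the sources used here. The values deposited by the authors are read as FPKM, because they are not whole although their sheet is named for counts, so no count model was used. Columns headed DCA were matched to the samples titled DCA_CF.

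Names come from the table and from a RefSeq gene table of apple, which held 34074 of the table's identifiers. Of the tested genes, 558 (1.69%) carry a symbol. The members, gene lists and naming rule were chosen with earlier results of these data known.

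Genes at 1 FPKM or more in 3 or more of 36 columns were kept. Values were transformed as log2(FPKM + 1), and limma 3.58.1 in R 4.3.3 fitted 1 mean per group to the 36 libraries (empirical Bayes variances with a trend on level), with Benjamini-Hochberg adjustment over 32923 genes and a threshold of 0.05. Differences of time changes were contrasts of the same fit, and such a difference can come from unlike levels at T1, at T2 or at both. The steps were tested on simulated data. The labels do not say whether replicates came from separate trees or fruits, so p-values measure the spread between these libraries. Reads of close family members and of antisense transcripts can be shared.

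Named genes were the 10 with a symbol and the 5 of any identifier of largest change per direction (threshold passed, mean log2 level of 2 or more, no overlap), up to 2 per list and direction by p, a standing list, the 5 largest differences per direction and the 10 highest levels. List members of low level or without a call (such as DHN8, LOX5b, SOT2, LAR1, FLS and ANS) and LOC103403677 were added after their values were seen. 1 list member is included in its list's counts and is not reported here.

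Alternatives were another pseudocount, other filters, 3 scalings, a replicate block, a fit without trend, fits on fewer libraries and leaving out each library. No sequences or coordinates are given.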

Additional observations from a re-analysis of the deposited data

Results flagged for a closer look

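The time change in RA without SL differed by 3 or more on the log2 scale from that in another setting for the following genes, by limma's test of the difference itself. Against the mean of ULO and DCA_CF, the difference was 5.19 for GLB1 and 3.32 for HMG1. It was 3.63 for FPPS, 3.38 for AP2D16 and 3.31 for AP2D58. That of FPPS did not pass without T1 replicate b or with a pseudocount of 0.1. More negative in RA were GDSL (-4.98), EXPA1 (-4.29), Hsp2 (-3.61), AP2D29 (-3.10) and SnRK2.5 (-3.02).

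Against RA with SL, the difference was 4.01 for NAC10, 3.65 for EXPA1 and 3.59 for CWI. It was -8.17 for CHS1, -7.63 for MdCHS, -4.57 for DFR, -4.19 for MdF3H and -3.84 for CHS-2, all of flavonoid synthesis. For DHN5 it was -3.97, for PGIP1 -3.33, for PGIP2 -3.40 and for PG1 -3.42. Apart from CHS-2, which came from the standing list, the genes were chosen by the size of their change or difference. Only differences of 3 or more are given, so these values describe the extremes.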

How the results depend on the processing

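The counts called over time in RA without SL stayed within 1.5 times the main count of 15992 under every alternative run, from 13118 with a filter of 5 FPKM to 17474 with no filter. A pseudocount of 0.1 gave 2065 genes at least 2-fold higher and 1883 lower, against 1251 and 1116, and 2550 with a difference at least 2-fold more negative without SL than with SL, against 1682. Leaving out 1 library gave 14752 to 15240 called genes, of which 1239 to 1321 were at least 2-fold higher and 1104 to 1151 lower. For 141 pairs of a named gene and a comparison, the alternatives gave 2270 results. Of these, 2230 kept direction and side of the threshold, 35 kept direction and lost the call and 5 changed sign. Most of the genes had been picked for a large change or a small p, which favours keeping the call. The sign changes were in genes that did not pass: PPO was -0.019 with upper quartile scaling, -0.022 without T1 replicate c and -0.0086 without T2 replicate c, and CHS1 was -0.057 without T1 replicate b and -0.037 without T2 replicate b. Leaving out 1 library gave PPO between -0.022 and 0.0201 and CHS1 between -0.057 and 0.096. The cause was not tested. Upper quartile scaling turned the balance of calls to 7900 higher and 8064 lower. Fitting only the 6 libraries lost the calls of FPPS, ETR2, LOX6b, HMG1, DFR, 26rrn, 18rrn, HD23, MYBR2, ATG9, rps19 and 5rrn. The replicate letters did not pair the samples (correlations of same-letter deviations -0.0067, -0.0015 and -0.029), and the replicate block gave 15928 called genes, 20330 for the difference from low oxygen and 14521 for that from RA with SL. Read depth is unknown, so genes near 1 FPKM are the least certain, and 3 libraries per group limit all tests.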
